A study of Mus musculus with 3 samples.

Results

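The genes described here are the 7 genes that make, package, take up and break down GABA or set the chloride gradient on which GABA acts: Gad1, Gad2, Slc32a1, Slc6a11, Abat, Slc12a5 and Slc12a2. A TRα1 binding site, hereafter a site, was counted for a gene when its summit lay inside the gene (GENCODE vM21, GRCm38) or within 30 kb of the 5-prime end of the gene. By this rule 29 of the 23988 sites of the peak list belonged to the 7 genes. Each of the 7 genes had at least 1 site, and the same rule gave at least 1 site to 12648 of 21938 protein-coding genes, or 57.7%. At least 3 sites were found for 5 of the 7 genes, against 4049 of the protein-coding genes, or 18.5%. The stretch searched per gene included the gene itself, so longer genes were searched over more bases. Its median was 98.1 kb for the 7 genes, longer than for all protein-coding genes, and these shares were not adjusted for it. Shares among genes with a stretch of similar length are given with each gene below. Gad1 had 8 sites, Slc12a5 had 7 and Abat had 6, whereas Gad2 and Slc32a1 had 3 each and Slc6a11 and Slc12a2 had 1 each.

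TRα1 is a nuclear receptor for thyroid hormone, and the ChIP-seq data record where a tagged form of it sat on chromatin. All 3 libraries came from the striatum of adult male C57BL/6J mice, 8 weeks of age, that were untreated and euthyroid. The mice carried a GS-tagged TRα1 in GABAergic neurons, and their tissue was fixed in disuccinimidyl glutarate followed by formaldehyde. The driver of this expression and the number of animals per library were not given in the sources used here. There were 2 ChIP libraries and 1 input library made from the same genotype, and all of the libraries used here came from tagged mice. The processed data were 1 peak list without values per library, so that no replicate error, no depth per library and no test could be derived for any value below. The list came from chromatin alone, and whether the genes were expressed was not analysed here.

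GABA is the transmitter of the striatal projection neurons and of most striatal interneurons. The enzymes GAD67, encoded by Gad1, and GAD65, encoded by Gad2, make it from glutamate. VGAT, encoded by Slc32a1, loads it into vesicles. GAT-3, encoded by Slc6a11 and known mainly from astrocytes, removes it from the extracellular space, and GABA transaminase, encoded by Abat, breaks it down. The chloride gradient across the neuronal membrane decides whether GABA inhibits or excites: KCC2, encoded by Slc12a5, extrudes chloride, and NKCC1, encoded by Slc12a2, imports it.

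The element to which TRα1 is known to bind together with its partner RXR is DR4, in which the half-site AGGTCA is present 2 times in the same direction, 4 bases apart. It was searched on both strands of each site with at most 2 mismatches in the 12 bases of the half-sites. Of the 29 sites, 7 contained 1 such element each, or 24.1%, against 4138 of all 23988 sites, or 17.3%. The 7 elements lay in sites of Gad1, Slc32a1, Abat and Slc12a5. They are shown because they are the closest matches to DR4 at these genes. Each is written 5′ to 3′ in the direction of the repeat, with the half-sites in capitals and the spacer in lower case, and was read from GRCm38.
Gad1, chr2:70554654-70554669, minus strand: AGGTTAtttaAGGCCA
Gad1, chr2:70574997-70575012, minus strand: AAGTTAgacaAGGTCA
Gad1, chr2:70580946-70580961, minus strand: GGGTCAggaaAGATCA
Slc32a1, chr2:158611765-158611780, minus strand: AGGTCAgagaAGGGGA
Abat, chr16:8497516-8497531, minus strand: TGGTGAgcatAGGTCA
Abat, chr16:8585891-8585906, minus strand: AGGTCAtgggAGGGGA
Slc12a5, chr2:164982526-164982541, plus strand: AGGTCAcctgGGGACA
All 7 had 2 mismatches, and none of the 29 sites held a match with at most 1. The share of all sites with a match that close is not given here, so this absence was not set against the list. One half-site was intact in 5 of the 7 elements. It was the first half-site in 3 of them and the second in 2, and the other 2 elements, both at Gad1, had a mismatch in each half-site. The element at Abat that starts at 8585891 and the one at Slc32a1 both consisted of an intact first half-site followed by AGGGGA. On the genome, 6 of the 7 ran on the minus strand, opposite to the direction of transcription of their gene.

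The sequence around the summit of the strongest site of each gene is shown next, since these sites carried the highest fold enrichment and since most of them lacked DR4. Each stretch covers 75 bases on either side of the summit on the plus strand of GRCm38, which is also the strand of the genes. Capitals mark exact matches to any of 5 motifs searched on both strands. These were the half-site AGGTCA, the AP-1 motif TGANTCA, the CRE motif TGACGTCA, the E-box CAGCTG and the SP/KLF motif GGGCGG. The half-site motif can overlap the intact half-sites of DR4. Slc32a1 had 2 sites of equal fold enrichment and both are given. For Gad2 the summit lay in exon 1, so the part of the site upstream of the gene is given instead.
Gad1, chr2:70567367-70567517: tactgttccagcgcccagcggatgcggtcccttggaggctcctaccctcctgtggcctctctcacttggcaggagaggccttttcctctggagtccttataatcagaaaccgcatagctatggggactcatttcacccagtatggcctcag
Gad2, chr2:22621959-22622204: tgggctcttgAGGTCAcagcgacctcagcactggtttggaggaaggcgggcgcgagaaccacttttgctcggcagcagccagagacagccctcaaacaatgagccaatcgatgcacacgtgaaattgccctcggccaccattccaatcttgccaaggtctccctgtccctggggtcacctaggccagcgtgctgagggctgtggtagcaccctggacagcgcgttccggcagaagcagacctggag
Slc32a1, chr2:158610023-158610173: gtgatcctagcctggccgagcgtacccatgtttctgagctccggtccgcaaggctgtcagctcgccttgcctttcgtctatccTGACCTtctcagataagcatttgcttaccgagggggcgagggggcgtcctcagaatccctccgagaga
Slc32a1, chr2:158612022-158612172: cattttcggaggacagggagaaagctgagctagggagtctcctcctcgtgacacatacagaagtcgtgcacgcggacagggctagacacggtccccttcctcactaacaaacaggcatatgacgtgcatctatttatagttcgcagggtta
Slc6a11, chr6:114239019-114239169: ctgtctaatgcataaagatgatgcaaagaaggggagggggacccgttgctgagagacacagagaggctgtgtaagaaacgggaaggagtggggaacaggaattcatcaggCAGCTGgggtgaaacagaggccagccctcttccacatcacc
Abat, chr16:8496942-8497092: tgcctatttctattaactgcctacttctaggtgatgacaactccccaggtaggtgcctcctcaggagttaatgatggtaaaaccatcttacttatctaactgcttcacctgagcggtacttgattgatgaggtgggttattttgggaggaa
Slc12a5, chr2:164938744-164938894: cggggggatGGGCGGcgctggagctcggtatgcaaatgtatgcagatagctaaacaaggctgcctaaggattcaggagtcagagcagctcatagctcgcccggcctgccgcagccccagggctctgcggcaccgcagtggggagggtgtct
The stretches from Gad1, from Abat and from the intronic site of Slc32a1 held no match to the 5 motifs. Those from Gad2 and from the upstream site of Slc32a1 held 1 half-site each, the one from Slc6a11 held an E-box, and the one from Slc12a5 held an SP/KLF motif.

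The positions and heights of all sites are drawn in the map of the 7 genes. The pileup is the number of ChIP fragments that cover the summit, and the fold enrichment is the ratio of the pileup to the local background estimated by MACS, with 1 added to each. The 29 pileups ranged from 14 to 82 with a median of 23, against a median of 21 over all sites. The 29 fold enrichments ranged from 5.20 to 30.7 with a median of 8.16, against a range of 1.70 to 123 and a median of 7.40 over all sites. A fold enrichment above the median of all sites was found for 18 of the 29. The strongest 10% of all sites held 2 of the 29, the strongest 25% held 7 and the weakest 25% held 3. Most of the sites at these genes were thus of middle height in the list.

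**Figure D1:**
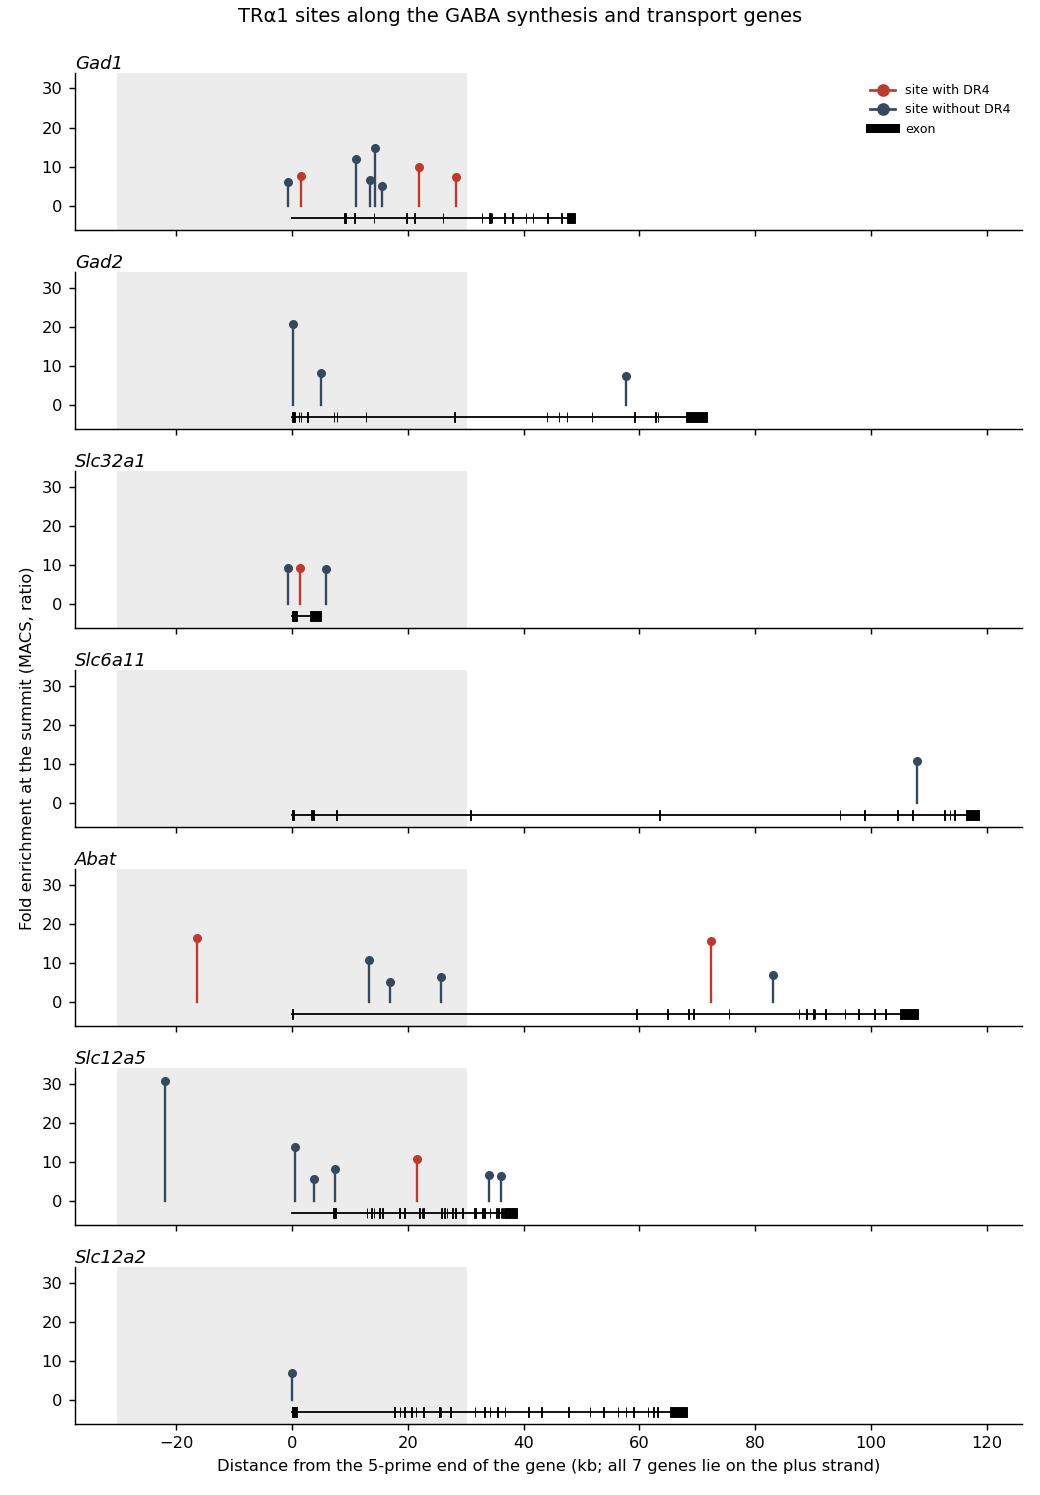
Sites along the 7 genes, aligned at the 5-prime end of each gene. Each stem is a site at its summit, its height is the fold enrichment (ratio, by MACS), red marks a site with DR4, the black line is the gene with the exons of its main coding transcript, and the grey band is 30 kb on either side of the 5-prime end. Gad1 carries 8 sites over 28.9 kb and Slc12a5 carries 7 over 58.1 kb. The single site of Slc6a11 lies near the end of the gene, outside the grey band.

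Gad1 (ENSMUSG00000070880, chromosome 2, 70553072 to 70602014) carried 8 sites that spanned 28.9 kb, with gaps of 857 to 9422 bp between neighbouring summits. At least 8 sites were found for 1.70% of the protein-coding genes, and for 0.336% of the 1487 other genes whose searched window was within 10% of the length of that of Gad1. The annotated 5-prime end of Gad1 is that of a long transcript, and the start in RefSeq lies downstream of it at 70562129. The 2 outermost sites on the left lay at the upstream start. One spanned 70552254 to 70552681 and peaked 614 bp upstream, with a fold enrichment of 6.08 at a pileup of 16. The other spanned 70554199 to 70554849 and peaked 1604 bp downstream, with a fold enrichment of 7.81 at a pileup of 20. Both summits also lay inside Gad1os, an antisense transcript of the locus.

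In introns 2 and 3 of the main coding transcript of Gad1, 4 sites lay close together, 1969 to 6425 bp downstream of the RefSeq start. The strongest, at 70567121 to 70567684 in intron 3, reached a fold enrichment of 14.9 at a pileup of 39, which ranked 3577 of 23988. The one nearest to the RefSeq start, at 70563922 to 70564374 in intron 2, reached a fold enrichment of 12.03 at a pileup of 34. The other two had fold enrichments of 6.69 and 5.20, and the second of these, with a score of 64, was the lowest of the 29 sites and close to the threshold of 60 below which peaks had been removed. None of these 4 sites held a DR4.

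The remaining sites of Gad1 lay in introns 5 and 6 and both held a DR4. The site in intron 5, at 70574889 to 70575386, reached a fold enrichment of 9.99 at a pileup of 26, and its element lay 6 bp from the summit. Its summit also fell in an exon of a non-coding transcript of Gad1. The site in intron 6, at 70580932 to 70581621, reached a fold enrichment of 7.40 at a pileup of 19, and its element lay 368 bp from the summit. The third DR4 of Gad1 lay 15 bp from the summit of the site 1604 bp downstream of the 5-prime end. The 3 sites with DR4 at Gad1 were thus lower than its 2 strongest sites, which had none. All 8 sites counted for Gad1 and for no other protein-coding gene.

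Gad2 (ENSMUSG00000026787, chromosome 2, 22622205 to 22693874) carried 3 sites, and its pattern differed from that of Gad1 in that the strongest lay at the start of the gene. The site at 22621959 to 22622820 had its summit in exon 1, 193 bp downstream of the 5-prime end and 71 bp downstream of the RefSeq start. It reached a fold enrichment of 20.7 at a pileup of 80, the second highest of the 29, and ranked 1995 among all sites. Its upstream part is the 246 bases printed above. The site at 22627030 to 22627375 in intron 4 reached a fold enrichment of 8.16 at a pileup of 27. The site at 22679801 to 22680105 in intron 12, which lay 57742 bp from the 5-prime end, reached a fold enrichment of 7.44 at a pileup of 19. No DR4 was found in the 3 sites, which says nothing beyond the absence of these letters. The background at the promoter site was 2.92 fragments, the highest of the 29, against a floor of 1.69 that held for 15 of the 29 sites, or 51.7%. Of all sites, 42.6% had a background at this floor.

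Slc32a1 (ENSMUSG00000037771, chromosome 2, 158610767 to 158615748), a gene of 4.98 kb, carried 3 sites of nearly equal height. The summit of the site at 158609872 to 158610369 lay 669 bp upstream, inside the non-coding gene Gm14204, with a fold enrichment of 9.30 at a pileup of 24. The site at 158611342 to 158612309 in intron 1 had the same pileup and the same fold enrichment and held a DR4, 325 bp from its summit. The site at 158616443 to 158616840, beyond the end of the gene, reached a fold enrichment of 8.93 at a pileup of 23. The 3 summits spanned 6.56 kb. They also lay within reach of Actr5, but the 5-prime end of Slc32a1 was the nearest for each of them. None of the 3 had a score of 200 or more, the higher threshold tried, against 31.4% of all sites above it.

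**Figure D2:**
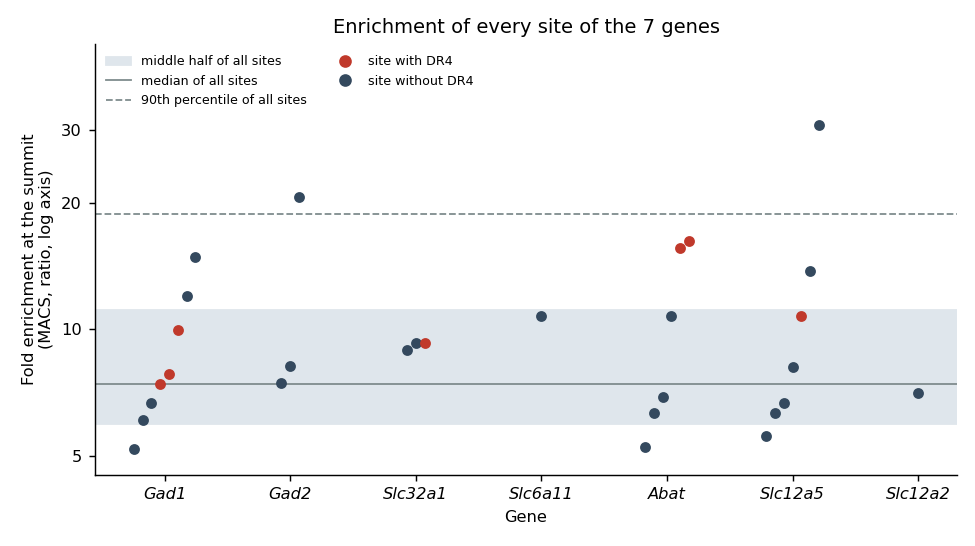
Fold enrichment (ratio, by MACS, logarithmic axis) of each of the 29 sites, grouped by gene and sorted within it. Each point is 1 site, red points hold a DR4, the band spans the 25th to the 75th percentile of all 23988 sites, the solid line their median of 7.40 and the dashed line their 90th percentile. The points above the dashed line are 1 site of Gad2 at 20.7 and 1 site of Slc12a5 at 30.7.

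Slc6a11 (ENSMUSG00000030307, chromosome 6, 114131241 to 114249952) had 1 site although it is the longest of the 7 genes, at 119 kb. Among the 649 other genes with a searched window within 10% of its length, 73.0% had at least 1 site. The site, at 114238795 to 114239466 in intron 10, reached a fold enrichment of 10.8 at a pileup of 28 and lay 107853 bp from the 5-prime end. No site lay within 30 kb of the start of Slc6a11, so the gene was counted through its body alone and had 0 sites when only the 30 kb were searched. The closest site outside the rule lay 17789 bp beyond it on the left, near Atp2b2, with a fold enrichment of 7.44. Its promoter is shown because it held 2 half-sites and 3 SP/KLF motifs, in capitals, but no site. The 250 bases before the RefSeq start on the plus strand of GRCm38 are as follows.
Slc6a11, chr6:114130991-114131240: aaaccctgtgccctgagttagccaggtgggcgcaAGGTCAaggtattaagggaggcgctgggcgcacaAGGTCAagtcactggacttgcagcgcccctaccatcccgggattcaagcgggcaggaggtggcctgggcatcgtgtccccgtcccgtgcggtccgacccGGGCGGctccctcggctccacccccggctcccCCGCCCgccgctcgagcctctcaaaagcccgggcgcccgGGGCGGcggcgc
Among 32851 promoters of the RefSeq table, the same 250 bases held a half-site in 14.0% and an SP/KLF motif in 32.7%. Entries in this table were found for 5 of the 7 genes.

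Abat (ENSMUSG00000057880, chromosome 16, 8513429 to 8621568) carried 6 sites over 99.4 kb. At least 6 sites were found for 4.17% of the protein-coding genes, and for 8.47% of the 720 other genes with a searched window within 10% of its length. No site lay within 1 kb of its 5-prime end. The strongest site spanned 8496794 to 8497697 and peaked 16412 bp upstream, with a fold enrichment of 16.3 at a pileup of 43. It held a DR4, 506 bp from its summit and outside the stretch printed above, and it also lay within 30 kb of the 5-prime end of Mettl22. The second strongest, at 8585629 to 8586038 in intron 5, reached a fold enrichment of 15.7 at a pileup of 49, and its DR4 lay 49 bp from the summit. The 2 sites with DR4 were thus the 2 highest at Abat. Intron 1 held 3 sites, 13390, 16862 and 25737 bp downstream, with fold enrichments of 10.8, 5.25 and 6.32. The last site, at 8596247 to 8596585 in intron 6, had a fold enrichment of 6.90. The 2 sites in introns 5 and 6 lay nearer to the 5-prime end of Pmm2 than to that of Abat, at 51825 and 41209 bp.

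Slc12a5 (ENSMUSG00000017740, chromosome 2, 164960802 to 164999731) carried 7 sites over 58.1 kb. At least 7 sites were found for 2.64% of the protein-coding genes, and for 0.855% of the 1871 other genes with a searched window within 10% of its length. The strongest of the 29 sites, at 164938457 to 164939357, was among these 7, with a pileup of 82, a fold enrichment of 30.7 and rank 837 of 23988. It lay 21983 bp upstream of Slc12a5 but 1961 bp from the 5-prime end of Mmp9, which encodes a matrix metalloproteinase, and also within 30 kb of Zfp335. With the strongest site counted for the nearest gene alone, the highest fold enrichment of Slc12a5 was 13.8.

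That value belonged to a site at the upstream start of Slc12a5, at 164960922 to 164961951, with a pileup of 43 and its summit 434 bp downstream of the first RefSeq start. The second RefSeq start, at 164967988, also had a site, at 164967818 to 164968390. This summit lay 212 bp downstream of it in exon 1 of the main coding transcript, with a fold enrichment of 8.15 at a pileup of 23. Each of the 2 alternative starts of Slc12a5 thus had a site at it. Between them, the site at 164964361 to 164964737 reached a fold enrichment of 5.58 at a pileup of 14. The sites at both starts and the site between them also counted for Mmp9. The other 3 sites lay in introns 8, 20 and 24. The one in intron 8, at 164982331 to 164982919, reached a fold enrichment of 10.8 at a pileup of 28 and held the only DR4 of Slc12a5, 52 bp from its summit. Those in introns 20 and 24 had fold enrichments of 6.69 and 6.32. The summits in introns 8 and 24 also fell in exons of non-coding transcripts.

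Slc12a2 (ENSMUSG00000024597, chromosome 18, 57878678 to 57946821) had 1 site, at 57878491 to 57878921, with its summit in exon 1, 14 bp downstream of the 5-prime end. It reached a fold enrichment of 7.07 at a pileup of 18, and 72.7% of the 12648 protein-coding genes with a site had a strongest site at least as high. It was the richest of the 29 sites in G and C, at 80.5%, and held no DR4. Its score of 105 was also under 200. The next site on the chromosome lay 296035 bp outside the searched window. For the chloride transporters, the exporter gene Slc12a5 thus had 7 sites and the importer gene Slc12a2 had 1, in searched windows of 68.9 and 98.1 kb. The 7 include sites that also counted for Mmp9. With a score of at least 100 the numbers were 4 and 1.

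For the other genes the closest sites outside the searched window lay 16025 to 27938 bp beyond it, with fold enrichments of 6.62 to 20.7. The counted site nearest to the limit of 30 kb, in intron 6 of Gad1, lay 28249 bp from the 5-prime end. Of the 29 sites, 24 lay inside their gene, and 6 of these were more than 30 kb from the 5-prime end. Introns of the main coding transcript held 18 summits and exons held 3, and the other 3 summits inside a gene lay in longer transcripts of Gad1 and Slc12a5. Of all sites, 20.4% lay within 1 kb of the 5-prime end of a protein-coding gene. Among the 18964 sites attached to protein-coding genes by the same rule, this share was 25.8%. Within 1 kb of the 5-prime end of their gene lay 5 of the 29 summits, or 17.2%. These 5 sites had a G and C content of 50.7 to 80.5% and fold enrichments of 6.08 to 20.7, and the other 24 had 33.4 to 71.0% and 5.20 to 30.7. The ranges of both measures overlapped. The 5-prime end of another protein-coding gene was nearer for 4 of the 29 sites, and 8 sites counted for at least 1 other gene.

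**Figure D3:**
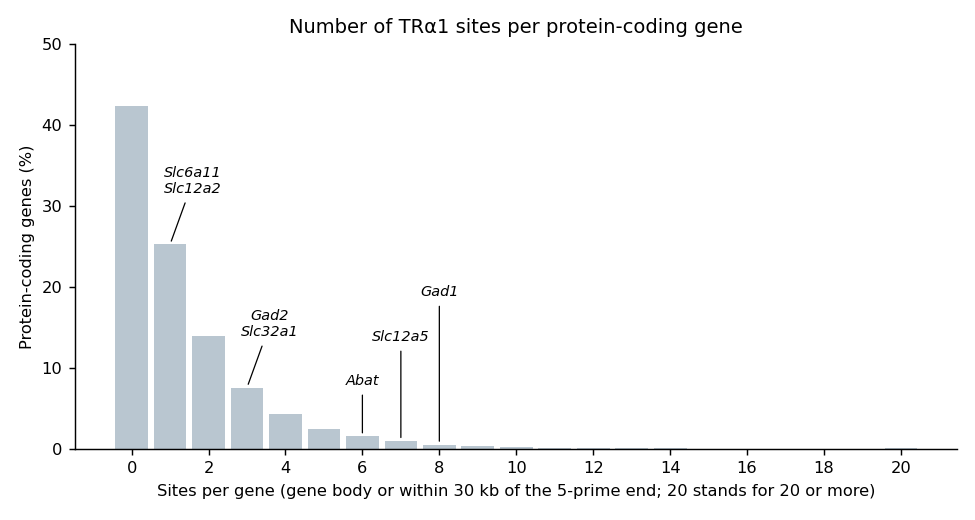
Number of sites per protein-coding gene (bars, percent of 21938 genes), with the 7 genes marked at their own number. Gad1 with 8, Slc12a5 with 7 and Abat with 6 sites stand in the sparse right part of the distribution, and Slc6a11 and Slc12a2 with 1 site each stand where 57.7% of the genes have at least as many. The numbers are not adjusted for the length searched per gene.

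The 7 sites with DR4 had fold enrichments of 7.40 to 16.3 with a median of 9.99, and the 22 without had 5.20 to 30.7 with a median of 7.79. Over all sites the medians were 8.18 with DR4 and 7.08 without. DR4 was searched over the whole length of a site, and length was not adjusted for. The 7 sites with DR4 were 410 to 968 bp long, against a median of 498 bp for all 29. At 4 of the 7 sites the element lay within 100 bp of the summit, and over all sites this held for 3141 of 4138. As a share of sites, this was 13.8% of the 29 against 13.1% of all sites, closer than the shares for whole sites. The sites at these genes were also longer, at a median of 498 bp against 422 bp over all sites. When windows as wide as the 29 sites were placed 5 kb to their right, DR4 was present in 2 of them, or 6.90%, against 5.90% of the windows beside all sites. Of these 29 windows, 2 overlapped another site. SP/KLF motifs were present in 12 of the 29 sites, or 41.4%, against 28.6% of all sites, and in 24.1% of the windows beside the 29 against 6.94% of those beside all sites. The single half-site was as frequent in the 29 sites as in the windows beside them, at 34.5% each, and was present in 30.7% of all sites. AP-1 motifs were present in 20.7% against 19.7% of all sites, E-boxes in 20.7% against 25.9%, and CRE motifs in 0 of the 29 against 1.33%.

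**Figure D4:**
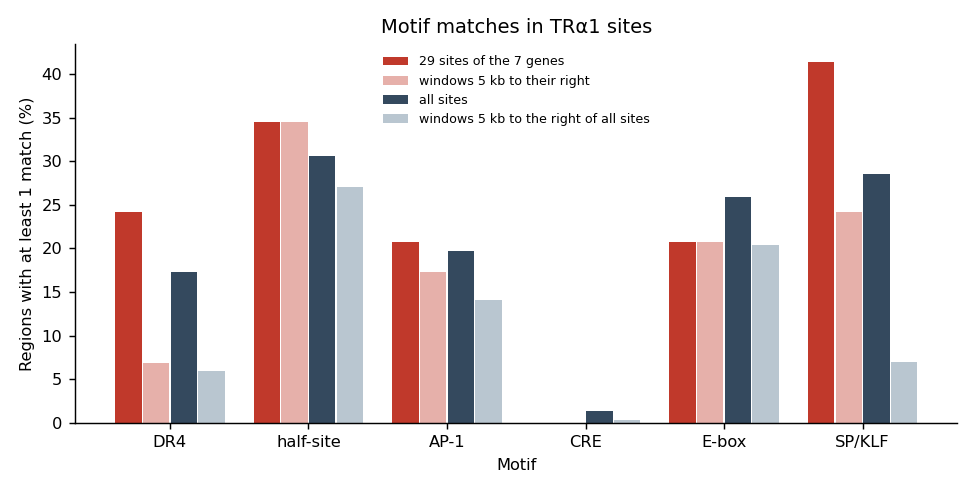
Share of regions with at least 1 match to each motif (percent), for the 29 sites, the windows 5 kb to their right, all 23988 sites and the windows 5 kb to the right of all sites. DR4 is at 24.1% in the 29 sites against 6.90% in their windows, and SP/KLF motifs are at 41.4% against 24.1%.

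Other genes of the same pathways were counted by the same rule. Of 16 other genes of GABA and glutamine metabolism and transport, 13 had at least 1 site and 2 had at least 3. One of the latter was Pdxk, which makes the cofactor of the GAD enzymes, with 4 sites. A site at the start of Gls2, which encodes an enzyme that makes glutamate from glutamine, had a fold enrichment of 44.6, above the highest value at the 7 genes. The highest value at Slc6a12, which encodes a transporter of betaine and GABA, was 20.4. The amino acid transporter genes Slc38a3 and Slc38a5 and the monoamine oxidase gene Maob had no site.

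Of 16 other genes of chloride transport and its kinases, 13 had a site and 4 had at least 3. Stk39, which encodes the kinase SPAK, had 9 sites, the chloride channel gene Clcn2 had 6 and the anion exchanger gene Slc4a3 had 4. High fold enrichments were found at the kinase gene Oxsr1, with 46.4 in a site nearest to Myd88, and at Slc4a3, with 16.7. Slc12a7, which encodes KCC4, and the kinase genes Wnk3 and Wnk4 had no site.

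Of 17 genes that make or transport other transmitters, 7 had a site and 0 had at least 3. No site was found at the genes of the vesicular glutamate transporters Slc17a6 and Slc17a8, of the vesicular acetylcholine transporter Slc18a3 and the choline transporter Slc5a7, of the vesicular monoamine transporter Slc18a2, of the dopamine, noradrenaline and serotonin transporters Slc6a3, Slc6a2 and Slc6a4, of the serotonin enzyme Tph2 and of the glycine transporter Slc6a5. The highest fold enrichments were 29.01 at Dbh, which encodes the enzyme that makes noradrenaline, in a site nearest to Fam163b, 26.8 at the glycine transporter gene Slc6a9 and 14.96 at Ddc, which encodes the decarboxylase of dopamine and serotonin synthesis. Counted per gene, there were 4.18 sites per 100 kb of searched window for the 7 GABA genes and 1.54 for all protein-coding genes. The value was 6.64 for the markers of striatal projection neurons described next, higher than for the GABA genes. It was 2.11 for the other genes of GABA and glutamine metabolism, 1.76 for those of chloride transport, 1.03 for the markers of glia and endothelium and 0.698 for the genes of other transmitters. The differences were not tested, since the lists were chosen with earlier results of these data known.

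The labelled cell type was set beside lists of marker genes. Of 10 genes of striatal projection neurons, 9 had a site and 7 had at least 3, and Adora2a had no site. The highest fold enrichments were 96.3 at Pde10a, 90.4 at Rgs9 and 42.4 at Ppp1r1b. The strongest site of Pde10a lay inside the gene, 133665 bp from its start, and was nearest to the start of Gm17087. Of 17 genes of glia and endothelium, 3 had a site and 2 had at least 3. These 3 were Mbp with 11 sites, Mog with 2 and Cx3cr1 with 3, with highest values of 32.7, 19.1 and 7.47. Mbp thus had more sites than any of the 7 GABA genes, as a count not scaled to the length of the searched window. The strongest sites of Mog and Cx3cr1 lay nearest to Gabbr1, which encodes a GABA receptor subunit, and to Csrnp1. The other 14 had none, and these included Slc1a2, Slc1a3, Aqp4, Gfap, Aldh1l1, Gja1, Mag, Tmem119, P2ry12, C1qa, Csf1r, Cldn5 and Pecam1. Occupancy does not measure expression, and the part of other cell types in the signal was not tested.

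**Figure D5:**
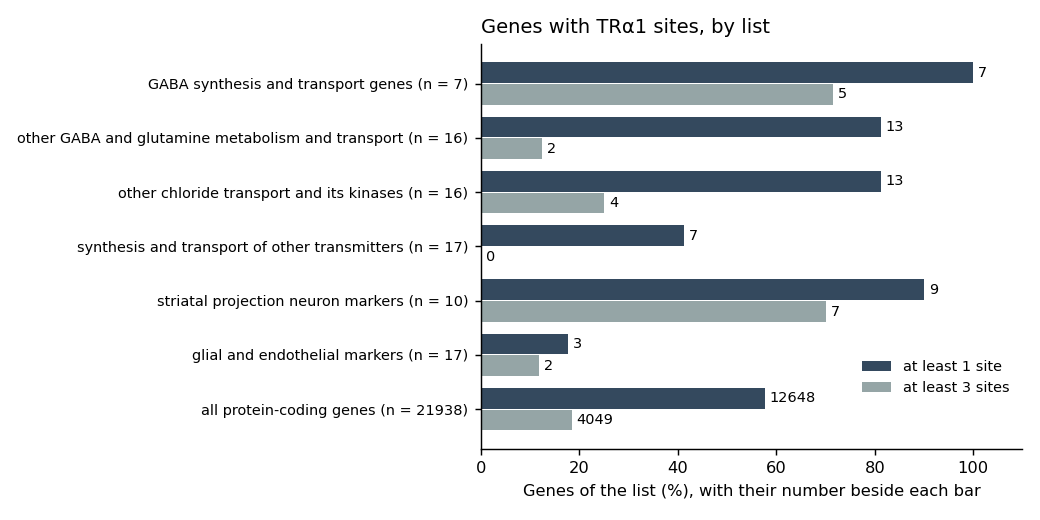
Share of the genes of each list (percent) with at least 1 site (dark bars) and with at least 3 sites (light bars), with the number of genes beside each bar. The 7 GABA genes reach 100% and 71.4%, all protein-coding genes 57.7% and 18.5%, and the genes of other transmitters 41.2% and 0%. The shares are not adjusted for the length searched per gene, which differs between the lists.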

How the data were processed

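ChIP-seq of GS-tagged TRα1 was performed by the authors on adult striatum, with 2 ChIP libraries and 1 input library grouped by their titles. Reads were aligned to GRCm38 with Bowtie and peaks were called with MACS, and the authors removed peaks with a score below 60. The submitters' processing notes name Bowtie2 2.3.2.2 and MACS2 2.1.1.20160309.0. Whether the ChIP libraries were pooled before calling was not given in the sources used here. The deposited list gives the pileup, which is the coverage signal at the summit. It gives the fold enrichment, a ratio made by the authors with MACS, and the −log10 q-value, both as deposited, and a −log10 p that was not used. The deposited score is 10 times −log10 q.

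The background behind each site was recovered by dividing pileup + 1 by the fold enrichment and subtracting 1. Sites were attached to protein-coding genes of GENCODE vM21 outside the mitochondrial genome. The searched window of a gene is its body together with 30 kb on either side of its 5-prime end. Exon and intron numbers follow 1 coding transcript per gene, chosen by its APPRIS tag and then by length. Sequences were read from GRCm38.p6, and promoters from the RefSeq table of the same build. Chromosome lengths were checked against the positions. No test was run, since the list holds no value per library. All 7 genes were named. In each other list the genes named were the 3 with the highest fold enrichment and those without a site, with the genes nearer to a site than its member. Genes with at least 3 sites were named in addition, after their values were seen. Some genes of these lists are not reported here by name. The members and lists were chosen with earlier results of these data known. Python 3.11.15, numpy 2.4.6, pandas 2.3.3, pysam 0.24.0 and matplotlib 3.10.9 were used, and the assignment and the DR4 search were tested on simulated data.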

Additional observations from a re-analysis of the deposited data

How the results depend on the processing

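The results were recomputed with other scores, distances, gene boundaries, positions of a site and mismatch limits. Of 252 values, 218 stayed within 1.5 times the value given above and 34 did not. No paired analysis was possible because the peak list holds no values per library, and for the same reason no replicate was left out.

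A score of at least 100 left 5 sites at Gad1 and 4 at Slc12a5. A score of at least 200 left 10 sites in all: 2 at Gad1, 1 at Gad2, 0 at Slc32a1, 1 at Slc6a11, 3 at Abat, 3 at Slc12a5 and 0 at Slc12a2. The median fold enrichment was then 14.3, 3 sites at 2 genes held a DR4, and 6712 protein-coding genes had a site. The genes with a site were then 8 in the list of GABA and glutamine metabolism, 8 in that of chloride transport and 3 in that of other transmitters. Sites inside the gene body alone left 1 at Slc32a1, with 7 genes of GABA and glutamine metabolism, 4 of other transmitters and 7108 protein-coding genes. The single site of Slc6a11 was lost, leaving 0, with 30 kb from the 5-prime end alone and when sites went to the nearest gene, and the gene had 2 sites with 50 kb. The highest fold enrichment of Slc12a5 was 13.8 with 10 kb, with the gene body alone and with the nearest gene. In the list of glia and endothelium the genes with a site were 9 with 50 kb, 5 with all transcript starts and 1 with the nearest gene, which left 4 genes of other transmitters. With at most 1 mismatch 0 sites at 0 genes held a DR4, and with at most 3 mismatches 17 did, so the number of DR4 sites depended on the limit. The shares of all sites at these limits are not given here. Within 100 bp of the summit 4 sites held a DR4. Each of the 7 genes kept a site except Slc6a11, Slc32a1 and Slc12a2 in the settings just named.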
